A study of Mus musculus with 10 samples.

Results

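Notch receptors, their ligands and their direct target genes were followed in ASZ001 cells, a murine basal cell carcinoma (BCC) cell line, after inhibition of TGFß receptor signaling or of AP-1. The set was 10 genes chosen by symbol: the receptors Notch1, Notch2 and Notch3, the ligands Jag1, Jag2 and Dll1, and the targets Hes1, Hey1, Heyl and Nrarp. Expression was measured by RNA-seq in 10 libraries, all from ASZ001 cells kept for 24 h in low-serum, low-calcium medium. In the first experiment, 3 libraries from cells given 10 µM SB431542, an inhibitor of the TGFß type I receptor ALK5, were compared with 3 libraries from cells given the vehicle DMSO. In the second, 2 libraries from cells given 20 µM T-5224, an inhibitor of the AP-1 transcription factor, were compared with 2 other DMSO libraries. Each group is therefore a treatment of a single cell line, and the study's methods describe the libraries as biological samples. Members were 9 of the 17658 genes listed for the SB431542 experiment, where Heyl was not among those listed, and 10 of the 16719 listed for the T-5224 experiment.

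Notch receptors are activated by ligands on neighboring cells. Ligand binding lets a sheddase and then γ-secretase cleave the receptor, and the freed intracellular domain joins the DNA-binding protein RBPJ to switch on targets such as the Hes and Hey repressors. In the epidermis the pathway is known for promoting the commitment of basal keratinocytes to differentiation, with Notch1 acting as a tumor suppressor in skin.

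T-5224 was designed to block DNA binding by AP-1, so the DNA just before the start of the receptor and Jagged genes is shown, chosen because Notch1 and Notch3, and likewise Jag1 and Jag2, moved in opposite directions with this compound. The sequences are from RefSeq (mouse build GRCm38.p6), which is not the mm9 build of the expression files, and give the 250 bases before the annotated start of each gene on its own strand, 5′ to 3′, all 4 genes lying on the minus strand. The windows are chr2:26503823-26504072 for Notch1, chr17:32166891-32167140 for Notch3, chr2:137116521-137116770 for Jag1 and chr12:112929496-112929745 for Jag2. Capitals mark CACNAG on either strand, the N box that Hes proteins recognize.
Notch1: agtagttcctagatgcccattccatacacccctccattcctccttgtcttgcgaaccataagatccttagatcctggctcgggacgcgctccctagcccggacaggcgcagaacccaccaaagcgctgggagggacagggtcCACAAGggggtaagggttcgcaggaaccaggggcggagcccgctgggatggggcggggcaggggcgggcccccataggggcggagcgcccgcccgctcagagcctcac
Notch3: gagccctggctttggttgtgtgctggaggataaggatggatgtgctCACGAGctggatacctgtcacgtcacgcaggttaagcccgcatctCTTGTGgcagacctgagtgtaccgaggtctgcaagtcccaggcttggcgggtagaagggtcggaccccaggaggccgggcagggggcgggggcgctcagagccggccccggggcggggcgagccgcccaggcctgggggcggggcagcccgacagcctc
Jag1: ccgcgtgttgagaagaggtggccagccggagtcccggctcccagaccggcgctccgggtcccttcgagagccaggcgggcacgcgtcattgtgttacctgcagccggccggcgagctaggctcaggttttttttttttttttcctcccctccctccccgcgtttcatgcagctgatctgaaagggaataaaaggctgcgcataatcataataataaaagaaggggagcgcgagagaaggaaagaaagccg
Jag2: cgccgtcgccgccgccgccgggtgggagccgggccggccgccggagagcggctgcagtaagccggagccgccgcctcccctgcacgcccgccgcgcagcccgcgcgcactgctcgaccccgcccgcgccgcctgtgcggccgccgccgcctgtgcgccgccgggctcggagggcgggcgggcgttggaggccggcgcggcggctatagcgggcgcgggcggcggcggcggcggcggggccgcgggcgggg

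Windows were matched for 7 members, with a second start for Dll1 giving 8 windows in all, and Hes1, Hey1 and Heyl were not searched. On either strand, the AP-1 site TGACTCA was in 0 of these 8 windows and in 4.46% of 32851 mouse windows of the same length. The core of the RBPJ site, TGGGAA, was in 0 of 8 and in 21.6% of all windows. CACNAG was in 4 of 8 windows, those of Notch1, Notch2, Notch3 and Nrarp, and in 36.7% of all windows, and no marked match overlapped another. In Notch1 the match lay 108 bases before the start, and in Notch3 the 2 matches lay 204 and 159 bases before it. The Jag2 window had a GC content of 87.2%, against 57.2% for Jag1 and a median of 52.4% over all windows. A match is a stretch of letters and not a measured site, and a window without one says nothing about binding elsewhere at the gene.

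Expression is given as RPKM, reads scaled to the length of the gene and the depth of the library, a length-scaled unit in which levels of different genes can be set side by side. Libraries held between 31.9 and 51.3 M reads, worked out from the steps of whole reads in short genes, so that 1 read per kilobase was worth 0.0195 to 0.0313 RPKM. In the T-5224 experiment depth was 31.9 and 39.05 M reads with DMSO and 51.3 and 49.28 M reads with T-5224. DMSO replicate 1 of the SB431542 experiment stood apart from the other libraries of its table. Its spread was 0.27 (SD over genes of the log2 difference from the other libraries of its group) against 0.12 to 0.19 in the other 5. The ribosomal RNA gene Rn45s was at 770 RPKM there, against 1868 to 2229 RPKM in the other 5. In the T-5224 experiment Rn45s also differed between libraries, at 3401 and 3473 RPKM with DMSO and at 1862 and 5184 RPKM with T-5224. The TGFß target Pmepa1 fell by 3.62 on the log2 scale with SB431542 and fell by 1.35 with T-5224 (adjusted p = 9.50e-07 and 1.42e-09, limma). The Hedgehog target Gli1 fell by 0.60 with SB431542 and fell by 1.66 with T-5224 (adjusted p = 0.00977 and 5.21e-08, limma). The TGFß target Smad7 also fell by 0.80 with SB431542 (adjusted p = 0.00194), and had a log2 fold change of 0.34 with T-5224 (adjusted p = 0.0212, lost in 4 of the alternatives). The basal keratinocyte keratins Krt14 and Krt5 were abundant in both sets of DMSO libraries, at 4076 and 4889 RPKM in the first and 5708 and 6001 RPKM in the second. Of the markers of other skin cells, Pecam1 was at 5.75 and 11.3 RPKM and Cd68 at 8.43 and 17.6 RPKM in the 2 sets of DMSO libraries, while the endothelial markers Tek, Tie1 and Cdh5 and the leukocyte marker Ptprc were below 0.2 RPKM on average wherever listed. Of the fibroblast markers, Dcn was at 2.13 and 1.89 RPKM and Pdgfra at 0.160 and 0.515 RPKM in these sets, and Col1a1, Col1a2 and Pdgfrb were below 0.2 RPKM on average.

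In vehicle-treated cells, Jag2 was the most abundant member in both sets of DMSO libraries, and Notch1 led Notch2 among the receptors with Notch3 far below. Beside SB431542, the DMSO libraries gave the order Jag2, Hes1, Notch1, Jag1, Notch2, Dll1, Nrarp, Hey1 and Notch3 by mean RPKM, and no pair of neighbors in this order had overlapping libraries. Beside T-5224 the DMSO order was the same but for Notch1, which lay above Hes1, and Jag1 and Notch2 overlapped. Receptors other than these were barely present, with Notch4 at 0.042 to 0.163 RPKM over the 6 libraries of the SB431542 table and at 0.07 to 0.156 RPKM over the 4 of the T-5224 table. Dll4, a ligand best known from blood vessels, was listed at 0 to 0.032 RPKM and at 0 to 0.011 RPKM. Heyl, a Hey family repressor, was listed at 0, 0, 0 and 0.009 RPKM in the T-5224 table and was not tested.

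With SB431542, the ligands Jag1 and Dll1 and the target Hes1 fell, while Notch1 and Notch2 did not pass the test. Of the 8 members that passed the limit of a mean of 1 RPKM, 3 passed an adjusted p of 0.05 as lower and 0 as higher, where 20.2% of all 10842 genes tested passed, 10.0% as lower and 10.2% as higher. None of the 8 passed a 2-fold change (0 of 8 members), which 0.812% of all genes did, 0.231% as higher and 0.581% as lower. Log2 fold changes of the 8 members had a median of -0.03, against 0.01 over all genes, and a median size of 0.25, against 0.14.

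**Figure D1:**
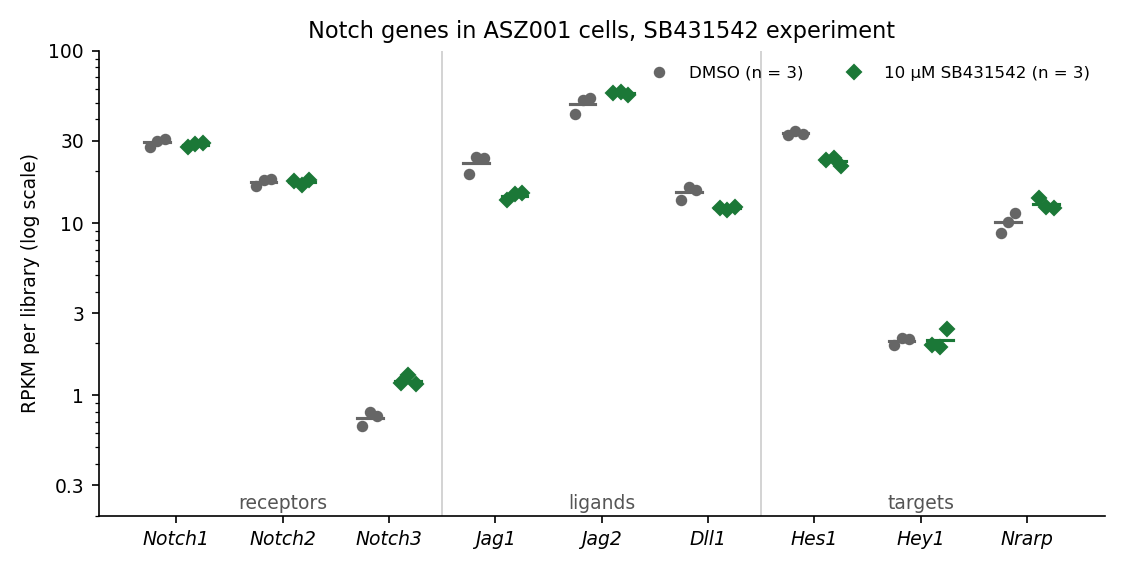
RPKM of the 9 Notch genes listed in the SB431542 table, on a log axis, with a point for each DMSO (grey circles) and SB431542 (green diamonds) library and a bar at each group mean. Jag1, Dll1 and Hes1 lie lower in every SB431542 library than in any DMSO library, and Jag2, Nrarp and Notch3 lie higher.

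Among the receptors, Notch1 (mm9 chromosome 2, 26313423 to 26372183) was at 27.5, 30.1 and 30.6 RPKM in the DMSO libraries and at 27.6, 28.6 and 29.1 RPKM in the SB431542 libraries. Notch2 (chromosome 3, 97817461 to 97954290), a second receptor of the skin epithelium, was at 16.5, 17.7 and 18.03 RPKM with DMSO and 17.5, 16.7 and 17.8 RPKM with SB431542. Both genes overlapped between the groups. The log2 fold change was -0.05 for Notch1 (95% interval -0.18 to 0.09, adjusted p = 0.601) and -0.00 for Notch2 (-0.14 to 0.13, adjusted p = 0.965). Notch3 (chromosome 17, 32257765 to 32303825), a receptor best known from smooth muscle of vessels, was at 0.664, 0.799 and 0.759 RPKM with DMSO and 1.18, 1.32 and 1.16 RPKM with SB431542. Every SB431542 library was above every DMSO library, but with an overall mean just under 1 RPKM Notch3 was not tested, and a fit with no limit on low values gave a log2 fold change of 0.47 (SE 0.08, adjusted p = 0.0220, limma).

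Of the ligands, Jag1 (chromosome 2, 136907192 to 136942380), the Jagged ligand that is itself induced by Notch in several tissues, was at 19.3, 24.1 and 23.9 RPKM with DMSO and at 13.7, 14.7 and 15.0 RPKM with SB431542. All 3 treated libraries lay below all 3 DMSO libraries. Jag1 fell by 0.61 on the log2 scale (SE 0.09, adjusted p = 0.00552, limma), and without the DMSO library that stood apart it fell by 0.72 (adjusted p = 3.10e-05). Dll1 (chromosome 17, 15504318 to 15513836), a Delta ligand made by basal cells of the epidermis, was at 13.6, 16.2 and 15.6 RPKM with DMSO and at 12.2, 11.97 and 12.3 RPKM with SB431542. The groups did not overlap and Dll1 fell by 0.30 (SE 0.07, adjusted p = 0.0272), but the call was lost when any 1 library other than DMSO replicate 1 was left out, with adjusted p up to 0.105, and stood at -0.37 (adjusted p = 0.000570) without that library. Jag2 (chromosome 12, 114146801 to 114167706), the second Jagged ligand, was at 42.8, 51.5 and 53.4 RPKM with DMSO and at 56.9, 57.3 and 55.7 RPKM with SB431542. All treated libraries were above all DMSO libraries, yet its log2 fold change of 0.21 (SE 0.08) had an adjusted p of 0.123 in limma, and without DMSO replicate 1, the lowest of the DMSO libraries, it was 0.11 with an adjusted p of 0.0378.

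Of the targets, Hes1 fell, and Nrarp and Hey1 did not pass. Hes1 (chromosome 16, 30064470 to 30067882), the basic helix-loop-helix repressor most often read as Notch output, was at 32.2, 34.2 and 32.9 RPKM with DMSO and at 23.4, 23.9 and 21.5 RPKM with SB431542. The groups were well apart, and Hes1 fell by 0.52 on the log2 scale (SE 0.06, adjusted p = 0.00178, limma), and passed with each library left out in turn (-0.54 without DMSO replicate 1, adjusted p = 0.000160). Nrarp (chromosome 2, 25036278 to 25038850), a feedback inhibitor that binds the Notch and RBPJ complex, was at 8.71, 10.1 and 11.4 RPKM with DMSO and at 14.0, 12.3 and 12.2 RPKM with SB431542. Every treated library was above every DMSO library, on the opposite side from Hes1. Its log2 fold change of 0.33 (SE 0.10) had an adjusted p of 0.0584, just short of the threshold, and passed it under median centring (0.0444), quantile normalization (0.0452), and without DMSO replicate 1 (0.24, adjusted p = 0.0356) or DMSO replicate 3 (0.42, adjusted p = 0.0310). Hey1 (chromosome 3, 8663362 to 8667039), a repressor related to Hes1, was at 1.95, 2.14 and 2.12 RPKM with DMSO and at 1.96, 1.92 and 2.43 RPKM with SB431542. The groups overlapped, with a log2 fold change of 0.01 (95% interval -0.22 to 0.24, adjusted p = 0.946). Groups did not overlap in 5 of the 8 members tested, 2 as higher and 3 as lower, against 45.1% of all genes (23.9% higher, 21.3% lower). Without DMSO replicate 1, 6 of 9 members tested passed, 3 as higher and 3 as lower. In that fit 37.5% of all genes passed (19.9% higher, 17.5% lower), more than with all libraries. Notch3, among the 3 higher, entered it only through the SB431542 libraries, at 1.18, 1.32 and 1.16 RPKM. Its remaining DMSO libraries, at 0.799 and 0.759 RPKM, were under the limit of 1 RPKM.

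With T-5224, the receptor Notch3 and the ligand Jag1 rose, and the receptors Notch1 and Notch2, the ligands Jag2 and Dll1, and the targets Hes1, Hey1 and Nrarp fell. All 9 members that passed the limit of 1 RPKM had an adjusted p under 0.05, 2 as higher and 7 as lower, where 79.7% of all 10809 genes tested passed, 40.3% as higher and 39.4% as lower. With so many genes past the threshold, the count alone sets the Notch genes little apart. A 2-fold change was passed by 3 of the 9, Notch3 as higher and Dll1 and Hey1 as lower, against 21.0% of all genes (10.4% higher, 10.6% lower). Hey1, which is in each of these counts as lower, passed the limit of 1 RPKM through its DMSO libraries alone. Log2 fold changes of the 9 members had a median of -0.82, against 0.00 over all genes, and a median size of 0.88, against 0.50. The treated and DMSO libraries did not overlap in any of the 9, which held for 89.7% of all genes in these groups of 2 (45.1% higher, 44.5% lower).

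**Figure D2:**
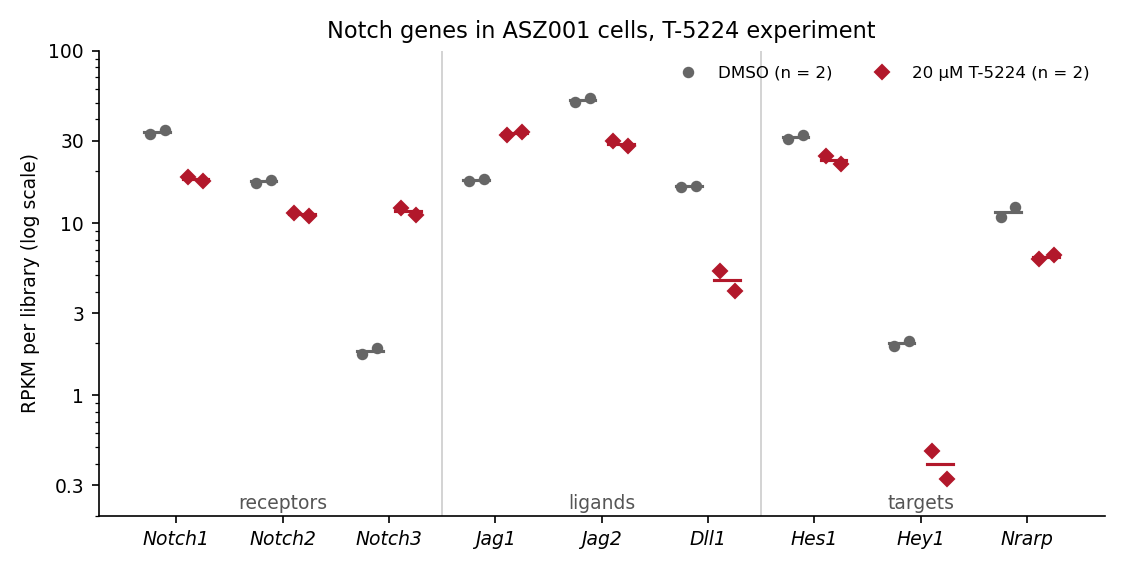
RPKM of the 9 Notch genes tested in the T-5224 table, on a log axis, with a point for each DMSO (grey circles) and T-5224 (red diamonds) library and a bar at each group mean. Notch3 moves from 1.81 to 11.7 RPKM and Jag1 from 17.8 to 33.1 RPKM on average, while the other 7 genes lie lower in both T-5224 libraries.

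The largest change was in a receptor. Notch3 was at 1.74 and 1.88 RPKM with DMSO and at 12.3 and 11.2 RPKM with T-5224. It rose by 2.40 on the log2 scale (SE 0.09, 95% interval 2.20 to 2.60, adjusted p = 7.56e-10, limma), 5.29-fold on that scale, and ranked 142 among the rises of all 10809 genes. Notch1 was at 32.8 and 34.9 RPKM with DMSO and at 18.6 and 17.5 RPKM with T-5224. It fell by 0.89 (SE 0.06, adjusted p = 1.43e-07), and Notch2, at 17.1 and 17.8 RPKM with DMSO and 11.5 and 10.9 RPKM with T-5224, fell by 0.62 (SE 0.07, adjusted p = 5.78e-06). In the T-5224 libraries Notch3 and Notch2 overlapped in level, whereas with DMSO Notch3 was the least abundant of the 9. The summed RPKM of the 3 receptors was 51.7 to 54.6 in the DMSO libraries and 39.6 to 42.4 in the T-5224 libraries.

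The ligands split. Jag1 was at 17.5 and 18.1 RPKM with DMSO and at 32.5 and 33.8 RPKM with T-5224. It rose by 0.88 on the log2 scale (SE 0.06, 95% interval 0.74 to 1.01, adjusted p = 9.84e-08, limma), a 1.84-fold rise. Jag2 was at 50.6 and 53.2 RPKM with DMSO and at 29.8 and 28.0 RPKM with T-5224, and fell by 0.83 (SE 0.06, adjusted p = 1.41e-07). Jag1 thus overtook Jag2 as the most abundant member of the set in the treated libraries. Dll1 showed the largest fall of the set, from 16.3 and 16.5 RPKM with DMSO to 5.25 and 4.05 RPKM with T-5224. It fell by 1.72 (SE 0.10, adjusted p = 3.03e-08), placing 395 among all falls.

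All 3 targets tested fell. Hes1 was at 30.7 and 32.5 RPKM with DMSO and at 24.5 and 22.1 RPKM with T-5224. It fell by 0.43 on the log2 scale (SE 0.07, adjusted p = 9.74e-05, limma), the smallest change of the 9. Nrarp was at 10.9 and 12.4 RPKM with DMSO and at 6.21 and 6.48 RPKM with T-5224, and fell by 0.82 (SE 0.08, adjusted p = 2.77e-06). Hey1 was at 1.93 and 2.07 RPKM with DMSO and at 0.472 and 0.328 RPKM with T-5224. It fell by 1.48 (SE 0.14, adjusted p = 1.60e-06), but its mean passed the limit of 1 RPKM through the DMSO libraries alone, and leaving out either of these took it below the limit.

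Basal keratinocyte genes moved in the same libraries. All 5 keratinocyte markers examined fell with T-5224, 4 of them past 2-fold, where 39.4% of all genes fell and 10.6% fell past 2-fold. Their summed RPKM, mostly Krt5 and Krt14, was 11679 to 12332 in the DMSO libraries and 1517 to 1575 in the T-5224 libraries. Krt14 fell by 2.82 on the log2 scale and Krt5 fell by 3.35 (adjusted p = 8.73e-12 and 1.06e-12, limma). Cd68, a lysosomal protein abundant in macrophages but not limited to them, rose by 0.89 (adjusted p = 2.22e-07), with Ptprc at 0.006 RPKM or less on average in both groups. The endothelial marker Pecam1 fell by 1.27 with T-5224 (adjusted p = 1.27e-07) and fell by 0.97 with SB431542 (adjusted p = 0.00103), and the fibroblast marker Dcn rose by 0.35 with T-5224 and by 0.68 with SB431542 (adjusted p = 0.0146 and 0.00178). In the T-5224 experiment the summed RPKM of the endothelial markers was 10.9 to 11.97 with DMSO and 4.13 to 4.67 with T-5224. That of the immune markers was 16.7 to 18.6 and 32.7 to 33.2. That of the fibroblast markers, mostly Dcn, was 2.53 to 2.58 and 2.64 to 2.84. The other fibroblast markers listed were under 1 RPKM and not tested. Among them Pdgfra was at 0.45 and 0.58 RPKM with DMSO and at 0.116 and 0.133 RPKM with T-5224. Col1a2 was also lower in both T-5224 libraries, Pdgfrb was higher (0.048 RPKM or less), and Col1a1 overlapped. Pdgfra, Col1a1 and Col1a2 were lower in every SB431542 library than in any DMSO library beside it, and Pdgfrb overlapped. In the SB431542 experiment 2 of the 5 keratinocyte markers fell and 1 rose, against 10.0% and 10.2% of all genes. The summed RPKM of the 5, again mostly Krt5 and Krt14, was 9119 to 9296 with DMSO and 6350 to 6807 with SB431542. The part of these shifts in the Notch results was not tested, and in bulk RNA fewer cells of a type and less RNA per cell cannot be told apart.

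**Figure D3:**
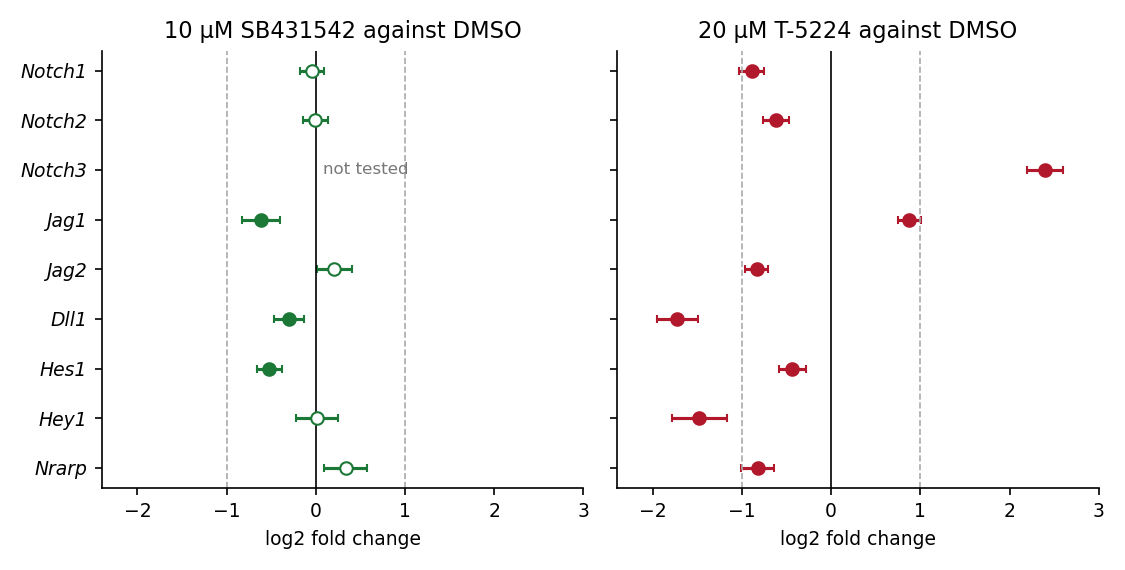
Log2 fold change of each Notch gene against the DMSO libraries of its own experiment, with 95% intervals, filled where the adjusted p was under 0.05 and with dashed lines at 2-fold. With SB431542 the values run from -0.61 (Jag1) to 0.33 (Nrarp) and Notch3 was not tested. With T-5224 they run from -1.72 (Dll1) to 2.40 (Notch3).

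The 2 tables were normalized separately, so the responses to the inhibitors stand side by side and were not tested against each other. Hes1 fell in both experiments, where it fell by 0.52 with SB431542 and fell by 0.43 with T-5224. Dll1 fell by 0.30 with SB431542 and fell by 1.72 with T-5224. Jag1 fell by 0.61 with SB431542 and rose by 0.88 with T-5224. Jag2 and Nrarp had log2 fold changes of 0.21 and 0.33 with SB431542, neither past the threshold, whereas with T-5224 Jag2 fell by 0.83 and Nrarp fell by 0.82. Notch3 was the 1 receptor whose treated libraries all lay above the DMSO libraries in both experiments. Its mean with DMSO was 0.741 RPKM beside SB431542 and 1.81 RPKM beside T-5224, the latter above its mean of 1.22 RPKM with SB431542. The source of this difference between the sets of DMSO libraries was not tested.

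Since RPKM is length-scaled, the make-up of the receptor and Jagged pools could be followed within each library. Notch1 made up 61.8% ± 0.166 (SD, n = 3) of the summed receptor RPKM with DMSO and 60.5% ± 0.867 with SB431542, and Notch3 made up 1.56% ± 0.0810 and 2.60% ± 0.207. Groups did not overlap for either share, and each gave p = 0.1 in the exact permutation test (two-sided), the smallest value that 3 against 3 allows. Notch2 made up 36.6% ± 0.235 and 36.9% ± 1.001 (exact permutation p = 0.7). With T-5224 the Notch1 share went from 63.7% ± 0.215 (SD, n = 2) to 44.1% ± 0.197, the Notch2 share from 32.9% ± 0.267 to 27.4% ± 0.319, and the Notch3 share from 3.41% ± 0.0522 to 28.6% ± 0.516. Here 2 against 2 allow no exact permutation p below 0.33, which all 3 shares reached.

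Jag1 made up 31.1%, 31.9% and 31.0% of the summed Jagged RPKM in the first set of DMSO libraries and 19.4%, 20.4% and 21.2% in the treated libraries (exact permutation p = 0.1, the smallest possible). In the T-5224 experiment it made up 25.7% and 25.4% with DMSO and 52.1% and 54.7% with T-5224 (exact permutation p = 0.33, the smallest possible). The share was thus lower in every SB431542 library and higher in every T-5224 library than in the DMSO libraries beside them.

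**Figure D4:**
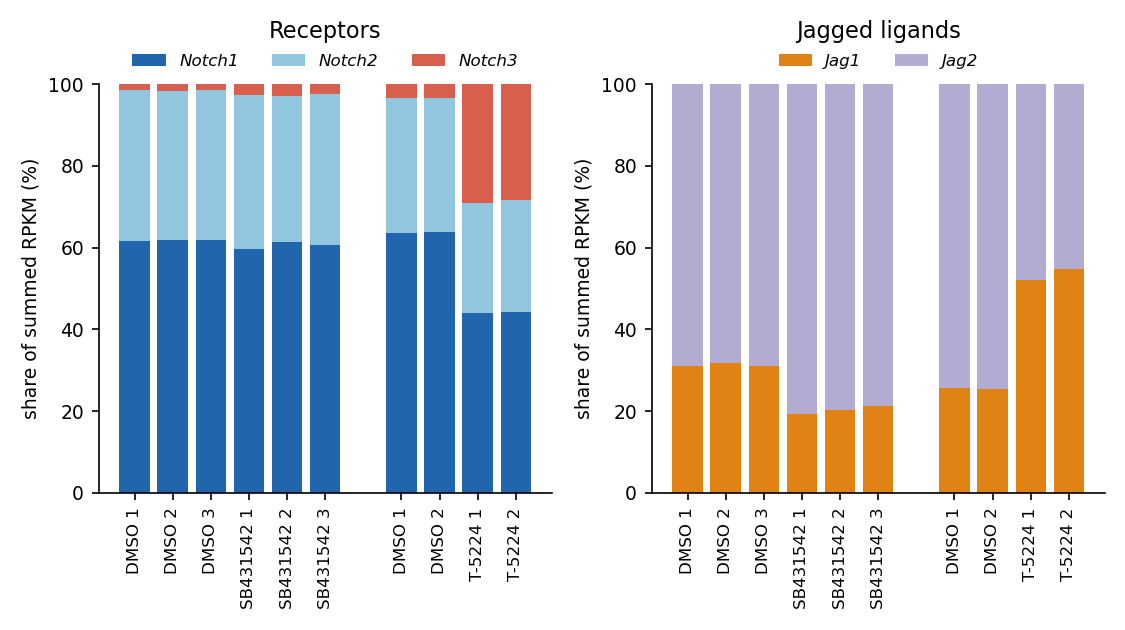
Share of each receptor in the summed RPKM of Notch1, Notch2 and Notch3 (left) and of each ligand in the summed RPKM of Jag1 and Jag2 (right), in percent, with a bar for each library. The Notch3 share goes from 3.41% to 28.6% on average with T-5224, and the Jag1 share goes from 31.3% to 20.3% with SB431542 and from 25.5% to 53.4% with T-5224.

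Of 60 other genes of the Notch pathway, 46 were tested in each experiment. With SB431542, 2 of the 46 were higher and 13 lower (32.6% past the threshold, against 20.2% of all genes), with a median log2 fold change of -0.03. With T-5224, 11 were higher and 27 lower (82.6%, against 79.7%), and 3 and 7 of them were past 2-fold (21.7%, against 21.0% of all genes). By direction, the 13 lower and 2 higher with SB431542 stood against 10.0% and 10.2% of all genes. With T-5224 the shares of both directions together lay near those of all genes. The 27 lower and 11 higher there stood against 39.4% and 40.3% of all genes. The median was -0.24, against 0.00 over all genes, and the median size was 0.45, against 0.50. Maml2, among those lower past 2-fold with T-5224, and Cir1 met the limit of 1 RPKM through their DMSO libraries. With T-5224 Maml2 was at 0.95 and 0.983 RPKM and Cir1 at 1.05 and 0.892 RPKM.

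**Figure D5:**
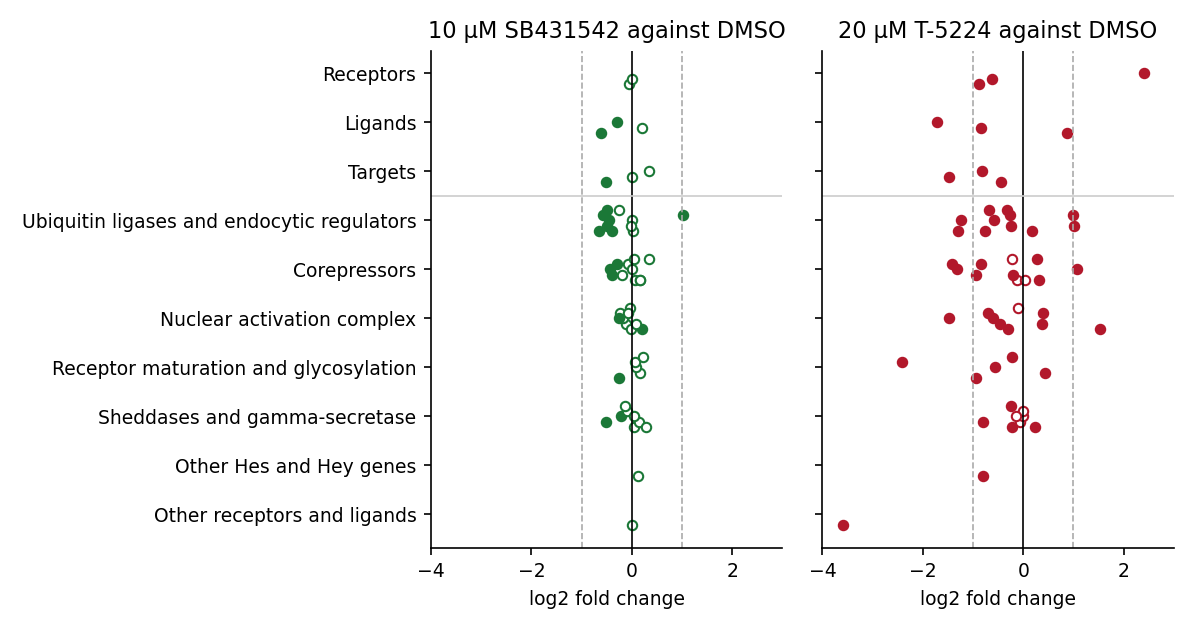
Log2 fold change of every tested gene of the Notch set (top 3 rows) and of the other pathway lists, filled where the adjusted p was under 0.05, with dashed lines at 2-fold. With SB431542 the genes beyond the set lie between -0.64 (Numbl) and 1.01 (Neurl1b), and with T-5224 between -3.59 (Dlk2) and 1.53 (Rbpj).

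Ubiquitin ligases and endocytic regulators had the most calls of these lists with SB431542, with 1 of 11 higher and 6 lower (63.6%, against 20.2% of all genes). With T-5224 3 were higher and 8 lower (100%, against 79.7% of all genes). Neurl1b, a Neuralized-type ligase that promotes ligand endocytosis, was at 11.04, 13.7 and 15.0 RPKM with DMSO and at 27.1, 28.4 and 25.8 RPKM with SB431542. It rose by 1.01 on the log2 scale (SE 0.11, adjusted p = 0.00138, limma), past 2-fold unless DMSO replicate 1 or SB431542 replicate 2 was left out or the pseudocount was 1, and rose by 0.99 with T-5224 (adjusted p = 1.63e-06), short of 2-fold. Mib2, a Mind bomb ligase for the same step, fell by 0.49 with SB431542 (adjusted p = 0.00299) and rose by 1.02 with T-5224 (adjusted p = 1.33e-07). Numbl, a relative of the Notch antagonist Numb, fell by 0.64 with SB431542 and fell by 1.30 with T-5224 (adjusted p = 0.00337 and 4.09e-09). Numb itself was at -0.25 (log2 fold change) with SB431542 (adjusted p = 0.0820) and fell by 0.33 with T-5224 (adjusted p = 0.0190), a call lost with no limit on low values, under quantile normalization, and without DMSO replicate 2 or T-5224 replicate 2 (adjusted p up to 0.202). Neurl1a, the second Neuralized gene, was at 0.01 with SB431542 (adjusted p = 0.963) and fell by 1.25 with T-5224 (adjusted p = 2.04e-07).

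Of the sheddases and γ-secretase subunits, 2 of 8 tested were lower with SB431542 (25%, against 20.2% of all genes). With T-5224, 1 was higher and 3 were lower (50%, against 79.7% of all genes). Adam10, the main sheddase of ligand-bound receptor, did not pass with SB431542 (log2 fold change 0.04, adjusted p = 0.697) and fell by 0.23 with T-5224 (adjusted p = 0.0159), a call lost without DMSO replicate 1, T-5224 replicate 1 or T-5224 replicate 2. Adam17, a related sheddase, had log2 fold changes of 0.14 (adjusted p = 0.153) and -0.07 (adjusted p = 0.417).

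Of 5 receptor maturation and glycosylation genes tested, 1 was lower with SB431542 (20%, against 20.2% of all genes). With T-5224, 1 was higher and 4 were lower (100%, against 79.7% of all genes). Lfng, the Fringe glycosyltransferase that alters how receptors respond to Delta and Jagged ligands, was at 38.2, 46.4 and 48.4 RPKM with DMSO and at 47.7, 45.0 and 46.4 RPKM with SB431542. These groups overlapped (log2 fold change 0.07, adjusted p = 0.610, limma). In the T-5224 experiment it was at 34.3 and 33.8 RPKM with DMSO and at 5.91 and 6.01 RPKM with T-5224, and it fell by 2.42 on the log2 scale (SE 0.06, adjusted p = 4.71e-11). The related Rfng was not past the threshold with SB431542 (0.22, adjusted p = 0.0777) and fell by 0.22 with T-5224 (adjusted p = 0.00800). Dlk2, a Delta-like protein that lacks the receptor-activating domain, was at 29.2 and 31.5 RPKM with DMSO and at 2.20 and 1.92 RPKM with T-5224, and fell by 3.59 (adjusted p = 1.69e-11).

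Of 9 genes of the nuclear activation complex, 1 was higher and 1 lower with SB431542 (22.2%), and 3 were higher and 5 lower with T-5224 (88.9%). Of 11 corepressors tested, 3 were lower with SB431542 (27.3%), and 3 were higher and 5 lower with T-5224 (72.7%). Over all genes these shares were 20.2% with SB431542 and 79.7% with T-5224. Cir1, among the corepressors tested, was at 2.10 and 2.56 RPKM with DMSO and at 1.05 and 0.892 RPKM with T-5224. It met the limit of 1 RPKM through these DMSO libraries. Rbpj, the DNA-binding partner of all Notch receptors, was at 23.2, 23.7 and 23.2 RPKM with DMSO and at 27.6, 26.5 and 26.9 RPKM with SB431542. It rose by 0.20 on the log2 scale (SE 0.05, adjusted p = 0.0250, limma), a call lost when any 1 library other than DMSO replicate 1 was left out (adjusted p up to 0.110). In the T-5224 experiment Rbpj was at 7.57 and 7.24 RPKM with DMSO and at 22.6 and 22.01 RPKM with T-5224, a rise of 1.53 (SE 0.07, adjusted p = 2.61e-09). Its DMSO level was thus 23.4 RPKM in one table and 7.41 RPKM in the other, in separately normalized tables where 14.4% of 10493 genes differed by more than 2-fold between the sets of DMSO libraries. Psenen, a γ-secretase subunit, was at 55.8 and 2.58 RPKM in the 2 sets, and the source of such differences was not tested. The corepressor gene Hdac1 was likewise at 65.8 and 3.97 RPKM in the 2 sets of DMSO libraries, and did not pass with SB431542 (log2 fold change -0.08, adjusted p = 0.252) but fell by 1.42 with T-5224 (adjusted p = 3.80e-07). Maml2, a Mastermind coactivator, did not pass with SB431542 (log2 fold change -0.17, adjusted p = 0.297) and fell by 1.48 with T-5224 (adjusted p = 5.27e-07). In the T-5224 experiment Maml2 was at 3.23 and 3.98 RPKM with DMSO and at 0.95 and 0.983 RPKM with T-5224. It thus passed the limit of 1 RPKM through the DMSO libraries alone. The Groucho-type corepressor Tle1 did not pass with SB431542 (log2 fold change 0.01, adjusted p = 0.932) and rose by 1.07 with T-5224 (adjusted p = 5.59e-08).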

How the data were processed

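Gene expression came from 2 tables of RPKM, one for each inhibitor. The authors made the deposited RPKM values from TruSeq stranded mRNA libraries with TopHat on mm9 and HOMER's analyzeRepeats.pl, and ran their own comparison with DESeq2. Counts were not used here, so no count test was run. The DMSO columns of the T-5224 table are numbered 1 and 2 there and 4 and 5 in the labels, and they were used as a group without pairing. Rows with a gene name turned into a date were left out (22 and 23).

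Genes with a mean of at least 1 RPKM over a table's libraries (10842 and 10809) were tested on log2(RPKM + 0.5) with limma 3.58.1 in R 4.3.3 (empirical Bayes, mean-variance trend, Benjamini-Hochberg adjustment over all genes tested). Fold changes are on this scale, which understates changes of low genes. A 2-fold call needed a log2 fold change beyond 1 and an adjusted p under 0.05. Every adjusted p in the text is from limma. Shares used exact permutation tests.

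All 10 members are named, with Rbpj, Adam10, Adam17, Lfng, Notch4, Dll4, Numb, Pmepa1, Smad7 and Gli1, and pathway genes past 2-fold in either experiment, and a few genes under this rule are not reported here. Other genes were named after their values were seen. The members and lists were chosen with earlier results of these data known. Read depth came from genes under 250 bases with under 6 reads (tolerance 0.05 of a read, at least 99.1% whole). Gene positions are from GENCODE M1 on mm9. Alternatives were pseudocounts of 0.1 and 1, no limit on low values or a mean of 5 RPKM, median centring, quantile normalization, no trend, a replicate block for SB431542, and each library left out.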

Additional observations from a re-analysis of the deposited data

How the results depend on the processing

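With T-5224 all 9 members kept their direction and stayed past the threshold under every alternative in which they were tested, and Hey1 could not be tested without either DMSO library. With SB431542, Jag1 and Hes1 did so, with leave-one-out values of -0.72 to -0.56 and -0.55 to -0.48. The count of members past the threshold with SB431542, 3 in the reported fit, was 2 to 6 with 1 library left out. The 6 included Notch3, which entered that fit only through the treated libraries. The count over all genes with SB431542, 2192 in the reported fit, was 741 to 4063 with 1 library left out (4063 without DMSO replicate 1), and the 88 genes past 2-fold became 51 at a mean of at least 5 RPKM and 76 to 108 with 1 library left out. For the other pathway genes with SB431542, the 15 past the threshold became 5 to 22 with 1 library left out, and the 1 past 2-fold became 0 with a pseudocount of 1 and 0 to 1 with 1 library left out. Dlk2 with SB431542 went from 0.01 (adjusted p = 0.986) to -0.18 (adjusted p = 0.0219) without DMSO replicate 1, within a range of -0.18 to 0.12 over the libraries left out. The cause of these shifts was not tested. Leaving out a library of the T-5224 experiment left 1 against 2, with the lone library assumed to vary like the others.

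Same-numbered DMSO and SB431542 libraries did not deviate together (correlations of -0.15, 0.15 and -0.09), so the numbers were not taken as pairs. With the replicate block the counts with SB431542 were 1271 over all genes, 2 of the members (Dll1 lost, adjusted p = 0.0603) and 9 of the other pathway genes (Rbpj among those lost, adjusted p = 0.0930). A paired fit was not made for T-5224, since the labels number its DMSO libraries 4 and 5 and the T-5224 libraries 1 and 2, and the numbers of the DMSO columns in the table could not be tied to a labelled library. With 2 or 3 libraries a group the standard errors rest on few libraries, and counting error was not separated from the spread between them.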

Other observations

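Genes that Notch is known to act on in keratinocytes were mixed. The cell cycle inhibitor Cdkn1a fell by 0.63 on the log2 scale with SB431542 (adjusted p = 0.00526, limma) and fell by 0.90 with T-5224 (adjusted p = 3.53e-08), from 20.3 to 12.9 RPKM and from 77.3 to 41.3 RPKM on average. Trp63, which encodes the basal keratinocyte regulator p63, did not pass with SB431542 (log2 fold change 0.10, adjusted p = 0.533) and fell by 0.59 with T-5224 (adjusted p = 1.03e-06). Krt10, an early differentiation keratin, was at 1.45 RPKM with DMSO and 1.56 RPKM with SB431542, and at 2.67 RPKM with DMSO and 1.43 RPKM with T-5224, where it fell by 0.73 (adjusted p = 0.000275).

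Hes6, a Hes family member that can oppose Hes1, did not pass with SB431542 (log2 fold change 0.11, adjusted p = 0.472, limma) and fell by 0.80 with T-5224 (adjusted p = 4.07e-06).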
